A study of Homo sapiens with 12 samples.

Results

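The genes described here encode the machinery that copies DNA: 54 genes, chosen by symbol and not by their values, out of 16383 genes listed in the deposited table. All 54 were listed, and all 54 had a mean of at least 10 normalized counts over the 12 libraries, as did 11242 of the listed genes. They fall into 12 groups by role: the origin recognition complex (5 genes), licensing factors and geminin (4), the MCM helicase (6), origin firing (4), GINS (4), PCNA and its loader RFC (6), polymerases and primase (10), RPA (3), Okazaki fragment processing (2), nucleotide supply (5), fork protection (3) and chromatin assembly (2).

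Poly(A) RNA was sequenced from IMR90 human lung fibroblasts, labelled wild type, in 4 groups of 3 libraries. Proliferating cells were labelled as having no treatment. The other 3 groups had received 20 Gy of ionizing radiation within 10 min and were labelled senescent. They were given DMSO, 2 µM palbociclib, which blocks the cell cycle kinases CDK4 and CDK6, or 2 µM ruxolitinib, which blocks the Janus kinases, on days 4, 6, 8 and 10 after irradiation, and all were harvested on day 11. All libraries come from 1 cell line, and no vehicle or harvest day is labelled for the proliferating cells, so irradiation, vehicle and time in culture cannot be told apart in the comparison of DMSO with proliferating cells.

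Before S phase, the origin recognition complex, CDC6 and CDT1 load the MCM helicase onto origins, a step called licensing. The kinase CDC7 with DBF4 then lets CDC45 and GINS join the helicase, and the polymerases, the sliding clamp PCNA and the nucleotide-making enzymes carry out synthesis. Many of these genes are targets of E2F transcription factors, which the retinoblastoma protein holds in check until CDK4, CDK6 and CDK2 phosphorylate it, and fibroblasts that leave the cell cycle are known to express them at low levels.

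Stretches of promoter are shown for 7 members, to set members that fell with palbociclib beside the MCM gene that was not called with it. PRIM1 and ORC3 had the largest and the smallest change after irradiation, and MCM6, CLSPN, MCM10, CDT1 and PCNA were chosen after their values were seen. The sequences are from RefSeq (GRCh38.p14), 5′ to 3′ on the gene's strand. Each is the longest stretch without an annotated exon among the 250 bases before the gene's start. Capitals mark matches to TTTNNCGC, an E2F-type motif, and to CCAAT, the box bound by NF-Y, on either strand. The stretch of MCM6 is chr2:135876444-135876693 (minus strand), that of CLSPN is chr1:35769979-35770228 (minus strand) and that of MCM10 is chr10:13161308-13161557 (plus strand). The stretch of CDT1 is chr16:88803539-88803788 (plus strand), and that of PCNA is chr20:5126627-5126872 (minus strand). Exons of neighbouring or alternative transcripts shorten the stretch of PRIM1 to chr12:56752375-56752448 (minus strand) and that of ORC3 to chr6:87590029-87590066 (plus strand).
MCM6: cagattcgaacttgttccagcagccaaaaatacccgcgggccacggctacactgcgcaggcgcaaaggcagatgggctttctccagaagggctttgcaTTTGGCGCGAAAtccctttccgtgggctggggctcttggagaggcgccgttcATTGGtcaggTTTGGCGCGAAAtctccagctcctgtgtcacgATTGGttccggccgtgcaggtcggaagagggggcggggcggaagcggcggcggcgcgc
CLSPN: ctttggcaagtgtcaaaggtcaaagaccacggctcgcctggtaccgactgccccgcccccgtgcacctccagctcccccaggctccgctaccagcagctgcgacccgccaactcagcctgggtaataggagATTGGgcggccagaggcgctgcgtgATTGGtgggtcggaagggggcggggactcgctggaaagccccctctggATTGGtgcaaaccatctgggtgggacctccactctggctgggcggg
MCM10: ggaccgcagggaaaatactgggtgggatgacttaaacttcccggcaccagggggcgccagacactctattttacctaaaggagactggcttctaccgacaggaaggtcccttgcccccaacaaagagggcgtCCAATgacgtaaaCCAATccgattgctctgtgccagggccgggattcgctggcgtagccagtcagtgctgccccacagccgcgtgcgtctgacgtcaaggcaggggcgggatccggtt
CDT1: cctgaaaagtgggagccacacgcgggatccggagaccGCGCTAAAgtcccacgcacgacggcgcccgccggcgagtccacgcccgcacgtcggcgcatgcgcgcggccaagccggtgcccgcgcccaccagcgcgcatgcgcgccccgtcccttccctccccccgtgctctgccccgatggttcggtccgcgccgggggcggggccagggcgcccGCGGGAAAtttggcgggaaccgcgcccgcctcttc
PCNA: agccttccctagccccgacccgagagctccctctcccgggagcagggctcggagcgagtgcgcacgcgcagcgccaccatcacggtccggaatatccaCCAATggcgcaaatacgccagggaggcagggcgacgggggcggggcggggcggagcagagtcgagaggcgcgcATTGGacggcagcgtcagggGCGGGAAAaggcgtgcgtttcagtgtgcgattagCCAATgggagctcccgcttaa
PRIM1: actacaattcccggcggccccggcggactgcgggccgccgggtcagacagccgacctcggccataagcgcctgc
ORC3: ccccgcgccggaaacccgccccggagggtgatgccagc

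The MCM6 stretch holds 4 matches to TTTNNCGC, which overlap in 2 runs because the letters match on both strands. The CDT1 stretch holds 2 such matches, the PCNA stretch holds 1, and the stretches of CLSPN, MCM10, PRIM1 and ORC3 hold none. The stretches of PRIM1 and ORC3 are only 74 and 38 bases long: the 250 bases before the start of ORC3 hold 1 TTTNNCGC match, 12 bases before the start, and the whole windows of ORC3 and PRIM1 each hold 1 CCAAT match. CCAAT occurs 3 times in the stretches of CLSPN and PCNA and 2 times in those of MCM6 and MCM10. In the window from 250 bases before to 50 bases after the start, TTTNNCGC was found in 23 of the 48 members with an entry in the promoter table (47.9%), against 10.6% of 9163 tested genes and 6.90% of all 27305 promoters. CCAAT was found in 27 of 48 (56.3%), against 36.7% of tested genes and 35.7% of all promoters. The CHR element, searched as TTTGAA or TTCGAA, was found in 3 of 48 (6.25%), against 11.3% and 16.6%. A match describes the letters in the window and does not show binding.

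The recovered reads per library, over the listed genes, ranged from 14106799 to 21762412, and the member with the lowest mean was at 114 normalized counts. Over all genes, each pair of libraries of a group differed by at least 1.98 times the counting variance. Where values of 3 libraries are given, they stand in the order of the library numbers, A125 to A127 for proliferating cells, A116 to A118 for DMSO, A119 to A121 for palbociclib and A122 to A124 for ruxolitinib. The labels do not say whether the 3 libraries of a group came from separate cultures, and the p-values then measure only the spread between these libraries. Proliferating library A126 and palbociclib library A120 stood apart from the others of their group, with 11.9 to 25.1 times the counting variance in each of their pairs against 1.98 to 6.43 in the other pairs. A120 was the highest palbociclib library for 31 of the 54 members and the lowest for 11. If libraries were given equal totals, the log2 value of the median gene would move by 0.23 in DMSO against proliferating cells, by -0.23 in palbociclib against DMSO, by -0.025 in ruxolitinib against DMSO and by -0.20 in palbociclib against ruxolitinib. Equal upper quartiles would move it by 0.29, -0.082, 0.044 and -0.13. All fold changes here are on the deposited scale unless another is named. All 10 fibroblast markers had a mean of at least 10 normalized counts in each group, with sums of 628023 to 633234 with DMSO and 903870 to 957539 with palbociclib, against 1104559 to 1144675 in proliferating cells and 746853 to 752823 with ruxolitinib. The 6 epithelial markers summed to 99.0 to 143.1 in proliferating cells, 267 to 310.2 with DMSO, 379.6 to 502 with palbociclib and 299 to 351 with ruxolitinib, and KRT5 and SFTPC had no read in proliferating or DMSO cells and CDH1 and KRT14 none in proliferating cells. The 5 endothelial markers summed to 1681 to 1949, 2389 to 2554, 3501 to 4380.1 and 2247 to 2254 in the same order, and the 6 immune markers to 544 to 571, 1224 to 1308, 697 to 806 and 1069.7 to 1149.6. TEK made up most of the endothelial sums and CD68 most of the immune sums, while CDH5 had no read with palbociclib and CD3E none in proliferating or DMSO cells. These sums moved with the groups, and their part in the results was not tested.

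After irradiation every member was lower on the deposited scale. In senescent DMSO cells all 54 members were called lower than in proliferating cells (limma, adjusted p under 0.05), where 39.3% of the 11242 tested genes were. The 54 members did not overlap between the groups either (40.8% of tested genes in that direction), and 48 were at least 2-fold lower, against a background of 8.98%. At least 4-fold decreases were seen in 32 members, against 2.43% of tested genes. The median log2 fold change was -2.26, beside -0.049 over all tested genes. The largest fall was in PRIM1, the catalytic subunit of primase, which was left with 10.2% of its mean in proliferating cells, and the smallest in ORC3, a subunit of the origin recognition complex, which kept 84.7%. Over the 54 members the median remaining level was 20.8%. ORC3 was not called at equal library totals (adjusted p 0.911) or equal upper quartiles (0.051, adjusted p 0.542), nor RPA2 at the same upper quartile (adjusted p 0.132), and the other 52 members were called under both scalings. In these bulk libraries, fewer cells that express a gene and less RNA per cell cannot be told apart.

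**Figure D1:**
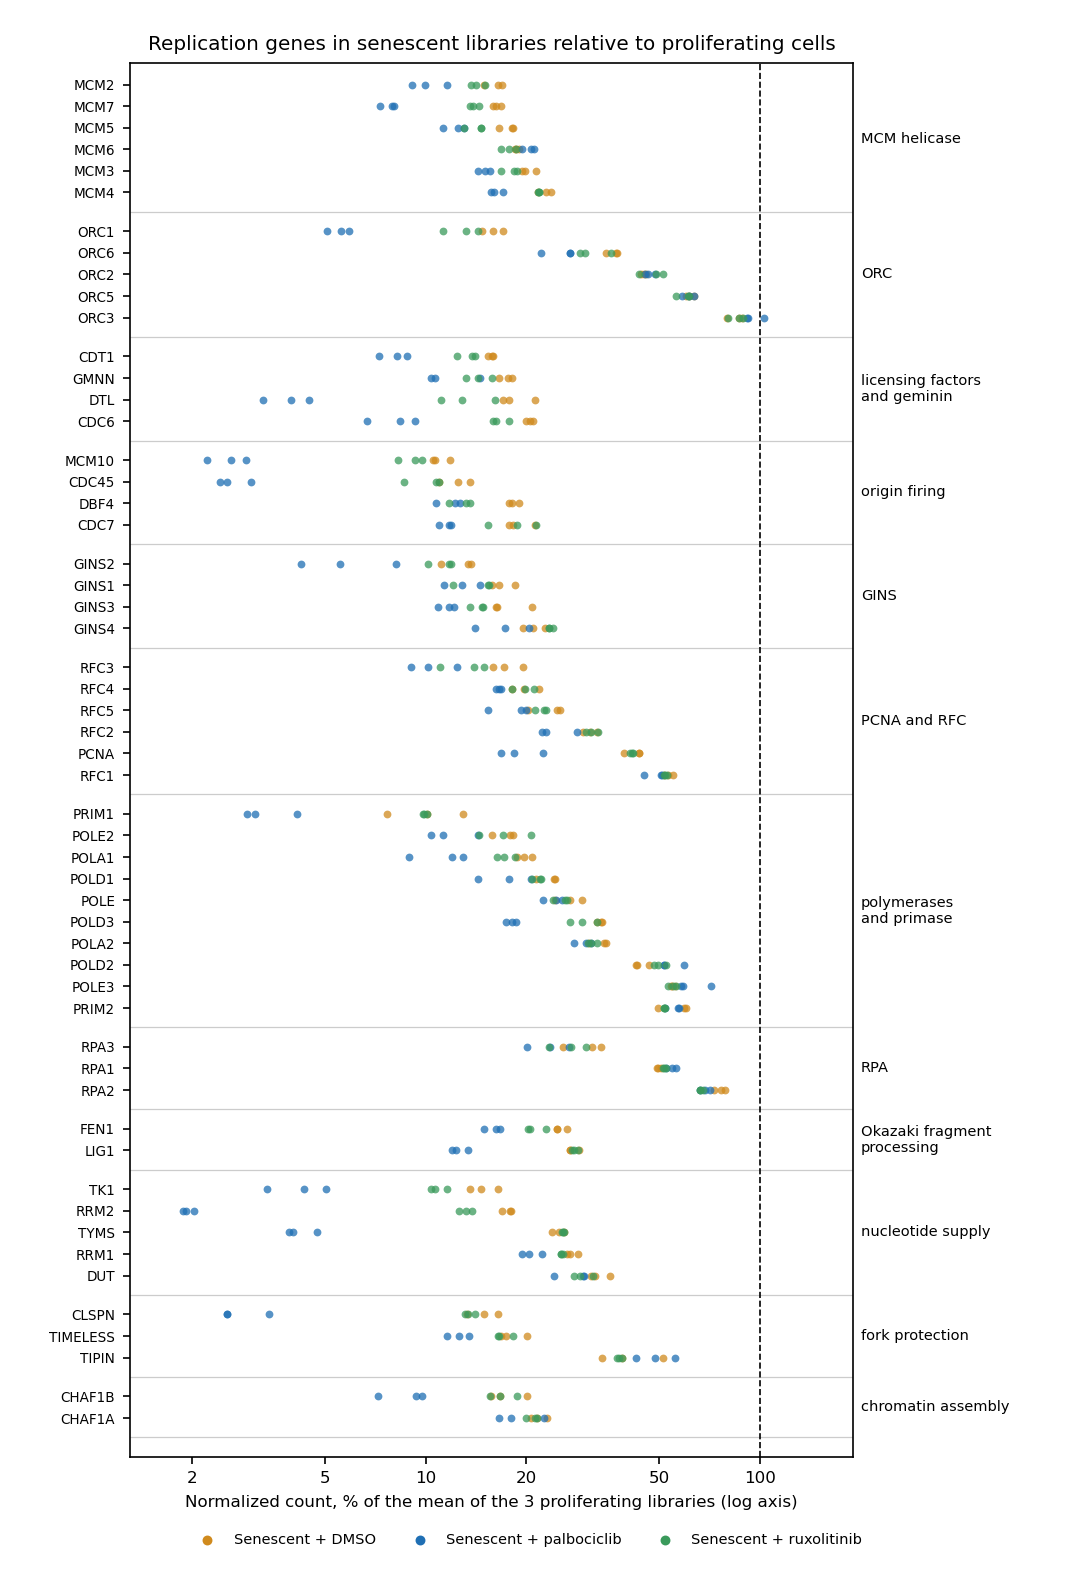
Normalized count of each of the 54 replication genes in the 9 irradiated libraries, as a percentage of the mean of the 3 proliferating libraries (log axis, dashed line at 100%). Each point is 1 library, coloured by treatment, and genes are grouped by role. With palbociclib 14 members had a mean under 10% of proliferating cells, RRM2 lowest at 1.94%, while ORC3 kept 84.7% with DMSO.

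Most of these genes were lower still with palbociclib, by unequal amounts. Against DMSO, 40 members fell and 3 rose (limma, adjusted p under 0.05), where 22.3% of tested genes were called lower and 26% higher. At least 2-fold decreases were seen in 14 members, against 5.39% of tested genes: RRM2 (-3.17), TYMS (-2.56), CLSPN (-2.38), DTL (-2.25), CDC45 (-2.16), MCM10 (-2.05), TK1 (-1.82), PRIM1 (-1.51), ORC1 (-1.50), CDC6 (-1.34), PCNA (-1.14), LIG1 (-1.13), GINS2 (-1.12) and MCM7 (-1.07), each as a log2 fold change. The median of all 54 was -0.53, beside 0.018 over all tested genes. The members that rose were POLD2, POLE3 and RPA1, with log2 fold changes of 0.30, 0.19 and 0.13. Another 11 members were not called in either direction: MCM6, ORC2, ORC3, ORC5, RFC1, POLA2, PRIM2, POLE, RPA2, TIPIN and CHAF1A. The palbociclib group had the lowest mean of the 4 groups for 44 of 54 members, against 27.1% of tested genes. These are not like for like. Proliferating cells had the highest mean for all 54 members, whereas they had the lowest for 38.2% of tested genes.

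The rises, and several of the members not called, depended on the scaling. At equal totals 47 members were called lower and 0 higher, and over all genes the split was 5176 lower to 940 higher (46% and 8.35%) in place of 2505 to 2927. At the same upper quartile 45 members were lower and 1 higher, against 28.9% and 17.3% of all genes. POLD2 was the member still called higher there and with edgeR and DESeq2, and POLE3 and RPA1 turned to -0.040 and -0.10 at the same total. Of the members not called on the deposited scale, RFC1, POLA2, POLE, RPA2 and CHAF1A were called lower at both other scalings. ORC5 and PRIM2 were called lower at equal totals only. When 1 library was left out, between 35 and 40 members were called lower and between 1 and 3 higher, with 1 higher without A116, A118, A122, A123 or A124. Those fits called 18.6% to 23.4% of all genes lower and 21.6% to 27.5% higher. The lower calls that did not hold each time were POLE2 (without A121), GINS1 (A116 or A121), DUT (A117 or A119), RFC5 (A117, A118 or A120), GINS4 (A116, A118, A119 or A121), RFC4 (A116, A117, A120 or A121) and RPA3, lost in 8 of the 12 fits, with adjusted p up to 0.170. POLE3 and RPA1 were each also lost in 8 of 12, with adjusted p up to 0.223. Without A120 and A126 together, 39 members were lower and 2 higher, against 22.6% and 27.8% of all genes.

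Ruxolitinib moved few of them enough to be called. Against DMSO, 5 members were called lower, DBF4 (-0.51, adjusted p 0.00596), TK1 (-0.45, adjusted p 0.0414), RRM2 (-0.42, adjusted p 0.000176), MCM5 (-0.32, adjusted p 0.0221) and MCM7 (-0.22, adjusted p 0.0254), and 0 higher (limma). The background was 3.42% lower and 1.1% higher over all tested genes. The median was -0.11, beside -0.0028 over all tested genes, and 46 of the 54 members had a negative log2 fold change. At an unadjusted p under 0.05, 16 members were lower and 1 higher, against 9.24% and 6.56% of tested genes, and edgeR and DESeq2 called 0 higher. The groups did not overlap for 20 members that were lower and 3 that were higher, where 17% and 14.9% of tested genes did so.

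The ruxolitinib count depended on single libraries. It was 3 without A116, A123 or A124, 2 without A117, A118 or A122 and 9 without A120. A120 is a palbociclib library, and it enters this comparison through the spread that the fit shares over the 4 groups. Without it DTL, RFC3 and FEN1 stayed at -0.50, -0.40 and -0.26, and their adjusted p fell under 0.05. The count was 10 when only the DMSO and ruxolitinib libraries were fitted, and 9 with DESeq2. The share of all genes called lower moved too, from 3.42% to between 1.96% and 4.34% when 1 library was left out, to 8.72% with the 2 groups alone and to 3.99% with DESeq2. RRM2 and DBF4 were called in each of the 12 fits that left out 1 library. MCM5 was lost in 5 of them (without A117, A118, A122, A123 or A124), MCM7 in 6 (the same libraries and A116) and TK1 in 9, with adjusted p up to 0.197.

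Set against each other directly, the inhibitors differed for most members. Between palbociclib and ruxolitinib, 32 members were lower with palbociclib and 2 higher, MCM6 (0.20, adjusted p 0.0182) and POLE3 (0.19, adjusted p 0.0491), against 17.6% and 22.8% of tested genes (limma). At least 2-fold lower values were seen in 12 members, against 3.99% of tested genes, and the median was -0.32, beside 0.022. The largest differences were in RRM2 (-2.75), TYMS (-2.60), CLSPN (-2.25), CDC45 (-1.87) and MCM10 (-1.78). This comparison and the one with DMSO use the same palbociclib libraries. The other 20 members were not called, which does not show that the inhibitors act alike on them. The 95% interval of the difference was -0.32 to 0.098 for DBF4, -0.22 to 0.15 for ORC2, -0.031 to 0.17 for RPA1 and 0.062 to 0.65 for TIPIN, with no adjustment for the number of genes.

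Here too the small rises rested on the scaling. At the same total 47 members were lower and 0 higher, with MCM6 at 0.0018 and POLE3 at -0.013, and at the same upper quartile 39 were lower and 0 higher. Over all genes the share called lower was 40.3% with equal totals and 29.3% with equal upper quartiles, in place of 17.6%. The share called higher was 7.52% and 11.5%, in place of 22.8%. Between 28 and 33 members were lower when 1 library was left out. Those fits called 13.7% to 19.2% of all genes lower and 18.3% to 24.7% higher. The count of 2 higher went to 0 without A120 or A123, to 1 without A125, A127, A118, A122 or A124 and to 3 without A126 or A121. Of the lower calls, ORC6 was lost without A121 or A124, POLE2 without A121 or A122, POLD1 without A119, A121, A122, A123 or A124, MCM5 in 8 of the 12 fits and RFC3 in 10, with adjusted p up to 0.196.

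**Figure D2:**
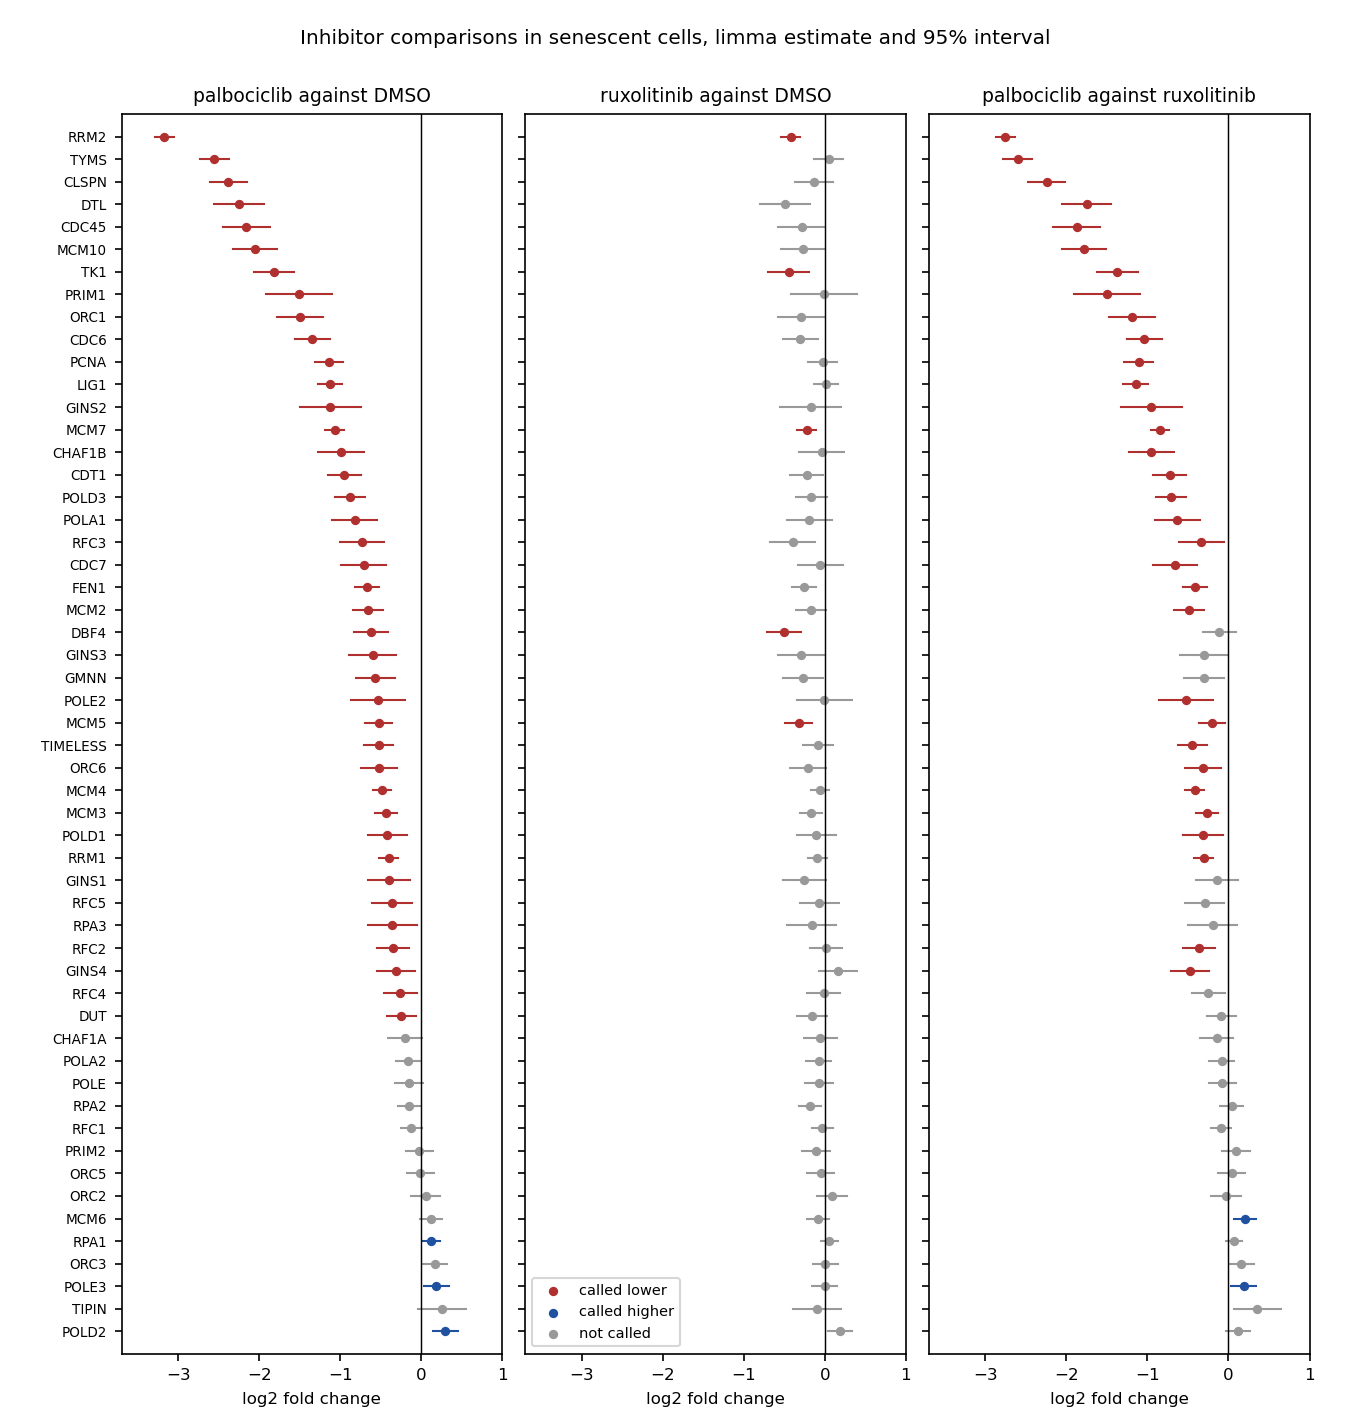
Log2 fold change of each replication gene, with its 95% interval from the limma fit, in 3 panels: palbociclib against DMSO, ruxolitinib against DMSO and palbociclib against ruxolitinib. Genes are sorted by the palbociclib value in the first panel, red points were called lower, blue points higher and grey points neither, and the 2 DMSO panels share the 3 DMSO libraries. RRM2 lies at -3.17, -0.42 and -2.75 in the 3 panels.

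Of the origin recognition complex, which marks the origins, all 5 members were called lower after irradiation (4 of them, without ORC3, at the same total or upper quartile), with a median log2 fold change of -1.15. Normalized counts of ORC1, its cell-cycle-regulated ATPase subunit, were 496, 446 and 549 in proliferating cells, 79.2, 73.4 and 84.4 with DMSO, 27.7, 25.2 and 29.3 with palbociclib and 65.6, 71.1 and 55.9 with ruxolitinib. The ORC1 groups did not overlap between proliferating and DMSO (-2.64, SE 0.13, adjusted p 7.39e-11) or between DMSO and palbociclib (-1.50, SE 0.13, adjusted p 3.23e-07). ORC3 was at 756, 691 and 768 in proliferating cells, 639, 587 and 651 with DMSO, 757, 673 and 680.4 with palbociclib and 638, 658 and 591 with ruxolitinib. It was lower with DMSO by the limma test (-0.24, adjusted p 0.00776), but 1 of its palbociclib libraries lay within the range of proliferating cells. Palbociclib against DMSO was not called for ORC3 (0.17, adjusted p 0.0673, 95% interval 0.014 to 0.32), and its adjusted p was 0.0496 without A120. ORC6 fell both after irradiation (-1.45) and with palbociclib (-0.52, adjusted p 0.000759). ORC2 (-1.15 after irradiation) and ORC5 (-0.70) were at 0.054 and -0.013 with palbociclib, neither called. With palbociclib 2 of 5 subunits, ORC1 and ORC6, fell.

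In the group of licensing factors and geminin, 4 of 4 genes fell with palbociclib. CDT1, which brings the MCM helicase to origins, was at 927, 1021 and 936 in proliferating cells, 152, 148 and 151 with DMSO, 69.7, 84.3 and 79.1 with palbociclib and 135, 132 and 119 with ruxolitinib. CDC6, the ATPase that works with it, was at 1411, 1409.6 and 1498 in proliferating cells, 288, 301 and 296 with DMSO, 121, 134 and 95.9 with palbociclib and 234, 255 and 228 with ruxolitinib. In both genes proliferating libraries were highest, palbociclib libraries lowest and ruxolitinib libraries just below DMSO, with no overlap between any of these groups. Ruxolitinib against DMSO was called for neither gene, and 17% of tested genes lay below DMSO without overlap in that comparison. CDC6 was called lower with ruxolitinib when A120 or A121 was left out (adjusted p 0.0438 and 0.0354). CDT1 fell after irradiation (-2.66, adjusted p 1.31e-12) and with palbociclib (-0.95, adjusted p 1.21e-06), as did CDC6 (-2.28, adjusted p 1.58e-11 and -1.34, adjusted p 5.18e-08). DTL, the substrate receptor of the ubiquitin ligase that destroys CDT1 in S phase, was at 1451, 1243 and 1550.3 in proliferating cells, 250.4, 241 and 301 with DMSO, 63.1, 55.8 and 46.2 with palbociclib and 181, 157 and 227 with ruxolitinib. DTL was lower with palbociclib than with ruxolitinib (-1.75, SE 0.14, adjusted p 1.79e-07), and its difference between ruxolitinib and DMSO was not called (-0.50, adjusted p 0.0676). DTL was called lower with ruxolitinib without A126, A119, A120 or A124 (adjusted p 0.0296 to 0.0484) and at the same total (adjusted p 0.0459). GMNN, which encodes the CDT1 inhibitor geminin, fell after irradiation (-2.52) and with palbociclib (-0.57, adjusted p 0.000905).

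The MCM helicase genes, which encode the ring that unwinds DNA, fell together after irradiation, all 6 at least 4-fold, between -2.63 for MCM2 and -2.14 for MCM4. MCM2 was at 1846, 1985 and 1958 in proliferating cells, 317, 289 and 327 with DMSO, 176, 223 and 192 with palbociclib and 263, 291 and 273 with ruxolitinib. MCM4 was at 4228, 4115 and 4263 in proliferating cells, 960.1, 913 and 994 with DMSO, 674, 717 and 659 with palbociclib and 917, 909 and 914 with ruxolitinib. In both genes palbociclib libraries lay below all DMSO libraries (MCM2 -0.66, adjusted p 2.08e-05; MCM4 -0.48, adjusted p 3.04e-06). With palbociclib 5 of the 6 subunits fell and MCM6 did not. MCM7 (chr7:100092233-100101940, GRCh38) was at 5729, 5748 and 5815 in proliferating cells, 933, 969.6 and 917 with DMSO, 456, 464 and 422 with palbociclib and 799, 782 and 832 with ruxolitinib. All 3 palbociclib libraries of MCM7 lay below all others (-1.07, SE 0.054, adjusted p 5.36e-10 against DMSO). MCM6 (chr2:135839626-135876443), whose promoter stretch holds 4 motif matches, was at 2283, 2393 and 2504 in proliferating cells, 446, 456 and 444 with DMSO, 494, 504 and 465 with palbociclib and 424, 401 and 446 with ruxolitinib. Its palbociclib libraries all lay above its DMSO libraries, by a difference that was not called (0.12, adjusted p 0.137; interval -0.017 to 0.25) and that was -0.11 at the same total. MCM3 (-0.43) and MCM5 (-0.53) fell with palbociclib. With ruxolitinib MCM5 and MCM7 were called lower and the other 4 subunits were not.

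Among the origin firing factors, all 4 fell after irradiation and again with palbociclib. MCM10, which helps to turn the loaded helicase into a moving one, was at 943, 803 and 923 in proliferating cells, 105, 94.7 and 93.7 with DMSO, 23.2, 19.7 and 25.8 with palbociclib and 73.3, 82.8 and 86.6 with ruxolitinib. CDC45, a part of the active helicase, was at 681, 759 and 754 in proliferating cells, 80.2, 91.2 and 99.4 with DMSO, 17.7, 21.9 and 18.7 with palbociclib and 78.7, 63.0 and 80.3 with ruxolitinib. In both genes the 3 palbociclib libraries were below all others (MCM10 -2.05, SE 0.13, adjusted p 4.96e-09; CDC45 -2.16, SE 0.14, adjusted p 6.48e-09), and ruxolitinib was not called (MCM10 -0.27, adjusted p 0.311; CDC45 -0.29, adjusted p 0.328). CDC7, the kinase that triggers firing, was at 472, 434 and 479 in proliferating cells, 98.0, 84.1 and 82.1 with DMSO, 54.2, 54.7 and 50.6 with palbociclib and 71.0, 86.4 and 98.4 with ruxolitinib. DBF4, its activating subunit, was at 982, 833 and 904 in proliferating cells, 160.4, 172 and 164 with DMSO, 111, 97.4 and 115 with palbociclib and 119.6, 122 and 106 with ruxolitinib. DBF4 was the member with the largest decrease with ruxolitinib (-0.51, SE 0.098, adjusted p 0.00596), and palbociclib against ruxolitinib was not called for it (-0.11, adjusted p 0.389). CDC7 fell with palbociclib (-0.71, adjusted p 0.000339) and not detectably with ruxolitinib (-0.054, adjusted p 0.902).

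GINS, the complex of 4 subunits that joins CDC45 on the helicase, went down as a whole after irradiation, with a median of -2.52. GINS2 was at 817, 867 and 777 in proliferating cells, 91.1, 110.1 and 112 with DMSO, 45.4, 66.8 and 34.6 with palbociclib and 83.3, 96.3 and 97.5 with ruxolitinib. Its palbociclib libraries were below all others (-1.12, SE 0.18, adjusted p 0.000105). GINS4 was at 1116, 1257 and 1219 in proliferating cells, 251, 233 and 273 with DMSO, 168, 243 and 206 with palbociclib and 280.1, 279 and 288 with ruxolitinib. With palbociclib 1 of its libraries, A120, overlapped the DMSO range, and its fall was small (-0.31, adjusted p 0.0303) and not called without A116, A118, A119 or A121. GINS1 (-0.40) and GINS3 (-0.60) also fell with palbociclib, GINS1 not without A116 or A121. GINS3 and GINS4 are among the 8 members that share over 10% of their exonic bases with other genes, the others being MCM2 (23.6%), POLA2 (21.3%), RFC5 (10.6%), PRIM1, TYMS and DUT.

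PCNA, the clamp that holds polymerases on DNA, fell after irradiation to 42.1% of its mean in proliferating cells and with palbociclib to 19.2%. PCNA was at 2755, 2864 and 2850.1 in proliferating cells, 1230.4, 1225 and 1108 with DMSO, 475, 632 and 519.6 with palbociclib and 1167, 1149.8 and 1173 with ruxolitinib. The 4 groups separated into 3 levels, with DMSO and ruxolitinib overlapping, and PCNA was called lower after irradiation (-1.25, adjusted p 1.65e-09) and with palbociclib (-1.14, SE 0.082, adjusted p 3.06e-08). RFC3, a subunit of the clamp loader, was at 1049, 1047 and 1054 in proliferating cells, 166, 179.9 and 205 with DMSO, 95.2, 130.3 and 107 with palbociclib and 116, 147 and 157 with ruxolitinib. It was the loader subunit with the largest fall in both comparisons (-2.51 and -0.73, adjusted p 0.000270), and its ruxolitinib libraries, although all below the DMSO libraries, were not called (-0.40, adjusted p 0.109). Without A120 the fall of RFC3 with ruxolitinib was called (adjusted p 0.0433). RFC1, the large subunit, was at 1874, 1771 and 1930.2 in proliferating cells, 985, 1018 and 959 with DMSO, 942, 837 and 947 with palbociclib and 956, 965 and 977 with ruxolitinib. Its irradiated libraries all lay far below proliferating cells (-0.91), and although its 3 palbociclib libraries were below its DMSO libraries, palbociclib was not called (-0.12, adjusted p 0.108). RFC2 (-0.35), RFC4 (-0.26) and RFC5 (-0.36) fell with palbociclib.

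**Figure D3:**
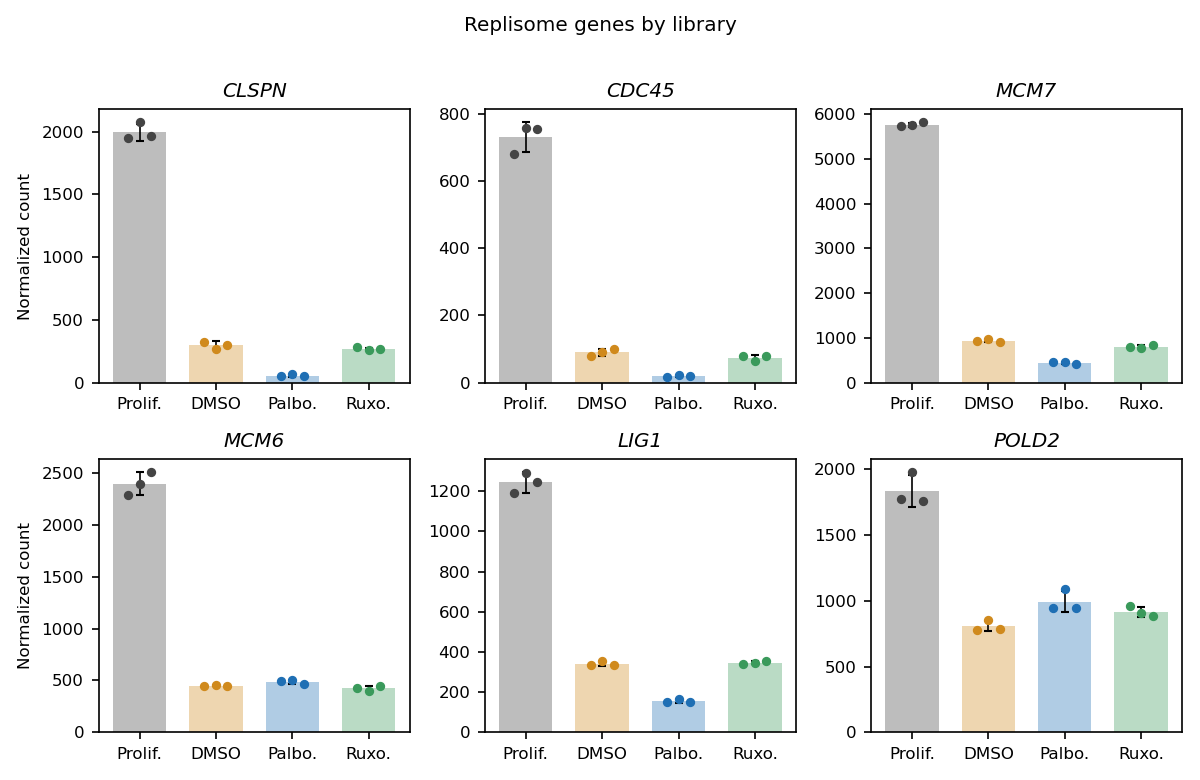
Normalized counts of CLSPN, CDC45, MCM7, MCM6, LIG1 and POLD2 in the 12 libraries. Bars are group means, error bars are 1 SD of 3 libraries and points are single libraries. The MCM7 points fall from 917 to 969.6 with DMSO to 422 to 464 with palbociclib, while those of MCM6 lie at 444.0 to 456 and 465 to 504.

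The primase and polymerase genes differed by subunit in how far they fell. PRIM1, the primase subunit that makes the RNA primer, was at 392, 362 and 372 in proliferating cells, 28.7, 37.9 and 48.6 with DMSO, 15.5, 10.9 and 11.5 with palbociclib and 37.8, 36.9 and 37.0 with ruxolitinib. The DMSO libraries of PRIM1 ranged widely and enclosed the ruxolitinib libraries, and the palbociclib libraries lay below both (-1.51, SE 0.19, adjusted p 1.32e-05). PRIM1 (chr12:56730438-56752374) shares 19.1% of its exonic bases with other genes, among them NACA on the same strand. PRIM2, the other primase subunit, was at 675, 695 and 663 in proliferating cells, 402, 335 and 407 with DMSO, 384, 351 and 388 with palbociclib and 353, 350.3 and 350.1 with ruxolitinib. It fell after irradiation only to 56.3% of proliferating cells (-0.83, adjusted p 1.39e-07), and its 3 irradiated groups were not called apart from each other. POLA1, the catalytic subunit of the polymerase that extends primers, fell with palbociclib (-0.82, adjusted p 0.000105), as did POLD1 (-0.42), POLD3 (-0.88) and POLE2 (-0.53). POLA2 (-0.16, adjusted p 0.0842) and POLE (-0.15, adjusted p 0.135) were not called on the deposited scale. At the same total POLA2 (-0.38, adjusted p 0.000493), POLE (-0.38, adjusted p 0.000872) and PRIM2 (-0.25, adjusted p 0.0201) were called lower with palbociclib. POLA2 and POLE were also called at the same upper quartile (-0.24 and -0.23), POLA2 without A117 and POLE without A118.

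Both members of the polymerase group that rose with palbociclib are accessory subunits. POLD2, the second subunit of polymerase delta, was at 1767, 1974 and 1755 in proliferating cells, 779, 852 and 787 with DMSO, 945, 1087 and 946 with palbociclib and 956, 909 and 879.8 with ruxolitinib. Its 3 palbociclib libraries were above its 3 DMSO libraries (0.30, SE 0.070, adjusted p 0.00277), and so were its ruxolitinib libraries, by a difference that was not called (0.18, adjusted p 0.194). At the same total the palbociclib value was 0.071 (adjusted p 0.425). POLE3, a histone-fold subunit of polymerase epsilon, was at 1696, 1828 and 1669 in proliferating cells, 940.3, 946 and 961 with DMSO, 1003, 1235 and 1017 with palbociclib and 920.5, 972 and 951 with ruxolitinib. Library A120 held the highest POLE3 value of the irradiated cells, and without A120 and A126 the call was lost (0.090, adjusted p 0.165).

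RPA, the complex of 3 subunits that coats single-stranded DNA, had a median log2 fold change of -1.01 after irradiation. RPA3 was at 305, 367 and 334 in proliferating cells, 86.1, 112 and 105 with DMSO, 67.5, 89.8 and 79.1 with palbociclib and 101, 90.9 and 78.5 with ruxolitinib. RPA2 was at 768, 818 and 889 in proliferating cells, 599.8, 646 and 631 with DMSO, 584, 566 and 546 with palbociclib and 547, 557 and 546 with ruxolitinib. After irradiation RPA3 fell to 30.2% and RPA2 to 75.8% of proliferating cells, the latter a small change (-0.40, adjusted p 5.60e-05), and no DMSO library reached a proliferating one. With palbociclib RPA3 was called lower (-0.36, adjusted p 0.0488) although A120 overlapped the DMSO range, and RPA2 was not called (-0.15, adjusted p 0.0797). RPA1, the large subunit, was at 2794, 2887 and 2847 in proliferating cells, 1405, 1398 and 1439.6 with DMSO, 1549, 1597 and 1484 with palbociclib and 1457, 1470.4 and 1484 with ruxolitinib. Its palbociclib libraries all lay above its DMSO libraries by a small amount (0.13, adjusted p 0.0377), which was -0.10 at the same total.

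Okazaki fragment processing fell after irradiation and again with palbociclib. FEN1, the flap nuclease, was at 2225, 2347 and 2135 in proliferating cells, 553, 593 and 552 with DMSO, 333, 373 and 363 with palbociclib and 451, 513 and 458 with ruxolitinib. LIG1, the ligase that seals the fragments, was at 1190.1, 1292 and 1246 in proliferating cells, 336, 356 and 335 with DMSO, 153, 166 and 149 with palbociclib and 339, 346 and 354 with ruxolitinib. For FEN1 the order was proliferating, DMSO, ruxolitinib, palbociclib with no overlap, and ruxolitinib against DMSO was not called (-0.26, adjusted p 0.0525). FEN1 was called lower with ruxolitinib without A126, A119, A120 or A123 (adjusted p 0.0295 to 0.0427) and at the same total (adjusted p 0.0364). LIG1 was not called between DMSO and ruxolitinib (0.017, adjusted p 0.952, 95% interval -0.13 to 0.17) and fell with palbociclib (-1.13, SE 0.071, adjusted p 5.79e-09), more than FEN1 did by its fold change (-0.67).

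Nucleotide supply was the group with the largest changes with palbociclib, at a median of -1.82 over its 5 genes. RRM2 (chr2:10120698-10211725), the S-phase subunit of ribonucleotide reductase, was at 8951, 8798 and 9290.1 in proliferating cells, 1520.4, 1615 and 1622 with DMSO, 183, 173 and 169.7 with palbociclib and 1134, 1188 and 1238 with ruxolitinib. It was left with 1.94% of its mean in proliferating cells, and the 4 groups did not overlap anywhere in the order proliferating, DMSO, ruxolitinib, palbociclib. RRM2 was called lower after irradiation (-2.51, SE 0.055, adjusted p 1.16e-14), with palbociclib (-3.17, SE 0.055, adjusted p 3.99e-15) and with ruxolitinib (-0.42, SE 0.055, adjusted p 0.000176). RRM1, the large subunit of the same enzyme, fell much less with palbociclib (-0.40, adjusted p 2.97e-05), from 1439 ± 55.9 to 1089.9 ± 73.1 (SD, n = 3).

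TYMS (chr18:657653-673578), thymidylate synthase, was at 1541, 1414 and 1571 in proliferating cells, 378, 359.9 and 392 with DMSO, 58.7, 71.2 and 60.4 with palbociclib and 385, 389 and 392 with ruxolitinib. Its DMSO and ruxolitinib libraries overlapped (0.045, adjusted p 0.860), and palbociclib lay far below both (-2.56, SE 0.083, adjusted p 4.01e-12 against DMSO). TYMS shares 47.9% of its exonic bases with ENOSF1 and TYMSOS on the opposite strand, and the strand setting of the counting is not given in the sources used here. TK1, thymidine kinase of the salvage route, was at 3094, 3515 and 3072 in proliferating cells, 471, 438 and 529.6 with DMSO, 108, 162 and 139 with palbociclib and 373, 344 and 335 with ruxolitinib. TK1 fell after irradiation (-2.75, adjusted p 1.05e-11) and, against DMSO, with palbociclib (-1.82, adjusted p 8.85e-09) and with ruxolitinib (-0.45, adjusted p 0.0414). DUT, which removes dUTP, was at 1634, 1567 and 1539.8 in proliferating cells, 506, 561 and 495 with DMSO, 383, 469 and 468 with palbociclib and 502, 439 and 458 with ruxolitinib. DUT changed least of the 5 (-1.60 after irradiation, -0.25, adjusted p 0.0248 with palbociclib), shares exonic bases with other genes and has 8 annotated pseudogenes, so that its value is uncertain. Pseudogenes are annotated for 13 of the 54 members, among them RRM2 and PCNA with 3 each, and reads shared with them could not be told apart here.

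**Figure D4:**
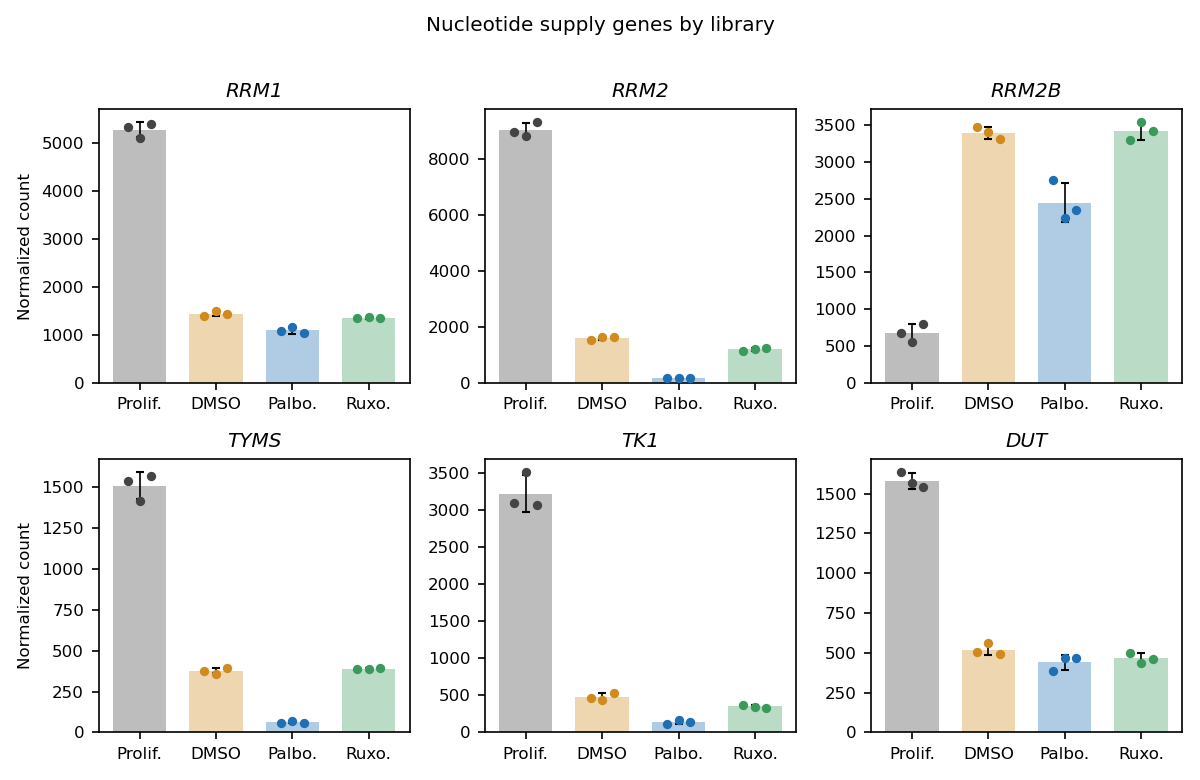
Normalized counts of RRM1, RRM2, RRM2B (not one of the 54 members), TYMS, TK1 and DUT in the 12 libraries. Bars are group means, error bars are 1 SD of 3 libraries and points are single libraries. RRM2 lies at 1520.4 to 1622 with DMSO, 1134 to 1238 with ruxolitinib and 169.7 to 182.6 with palbociclib.

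Of the 3 fork protection genes, CLSPN and TIMELESS fell with palbociclib and TIPIN was not called. CLSPN (chr1:35720218-35769978), the adaptor claspin of the replication checkpoint, was at 1953, 2074 and 1963 in proliferating cells, 328, 265 and 297 with DMSO, 50.9, 67.9 and 50.6 with palbociclib and 280.1, 261 and 266 with ruxolitinib. Palbociclib libraries of CLSPN were far below all others (-2.38, SE 0.11, adjusted p 1.77e-10), and DMSO and ruxolitinib overlapped (-0.14, adjusted p 0.617). TIPIN was at 326, 309 and 326 in proliferating cells, 108, 165 and 124 with DMSO, 178, 155 and 136 with palbociclib and 121, 119.8 and 124 with ruxolitinib. Its DMSO libraries spread from 108 to 165 and overlapped both inhibitor groups, and neither was called (0.26, adjusted p 0.136 with palbociclib). Without A117, the DMSO library at 165, TIPIN was called higher with palbociclib (0.43, adjusted p 0.0127). TIMELESS, the partner of TIPIN, fell in both comparisons (-2.46 after irradiation, -0.53, adjusted p 0.000134 with palbociclib).

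CAF-1, which deposits histones behind the fork, is represented by its CHAF1A and CHAF1B subunits. CHAF1B was at 762, 688 and 772 in proliferating cells, 148, 116 and 124 with DMSO, 53.1, 72.2 and 69.3 with palbociclib and 115, 139 and 124 with ruxolitinib. CHAF1A was at 1653, 1711 and 1525 in proliferating cells, 336, 376 and 352 with DMSO, 270.0, 368 and 293 with palbociclib and 326, 346 and 351 with ruxolitinib. CHAF1B fell with palbociclib (-0.99, SE 0.13, adjusted p 1.99e-05), with no overlap. For CHAF1A the palbociclib library A120 lay within the DMSO range and the difference was not called (-0.20, adjusted p 0.0992, 95% interval -0.41 to 0.0047). Without A120 it was called lower (-0.33, adjusted p 0.00295). It was also called lower at the same total (-0.43, adjusted p 0.00203) and the same upper quartile (-0.28, adjusted p 0.0261).

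Other genes of the pathway, taken from lists of names and not by how they moved, were counted in the same fit. Over all tested genes, 39.3% were lower and 33% higher after irradiation (26.4% and 47% at the same total). With palbociclib 22.3% were lower and 26% higher (46% and 8.35% at the same total), and with ruxolitinib 3.42% and 1.1%. Of 29 further replication genes tested, 27 were lower and 1 higher after irradiation, 16 lower and 1 higher with palbociclib, and 1 lower with ruxolitinib. At the same total 23 were lower and 1 higher after irradiation, and 22 lower and 0 higher with palbociclib. TOP2A, the topoisomerase of S phase and mitosis, had the largest fall after irradiation and with palbociclib, at 13245, 11952 and 13591 in proliferating cells, 1294, 1306 and 1389 with DMSO, 250.1, 273 and 232 with palbociclib and 1092, 1054 and 991 with ruxolitinib, with no overlap between any groups (-3.28 after irradiation, -2.40, SE 0.069, adjusted p 1.48e-12 with palbociclib). POLD4, the small subunit of polymerase delta, was the gene that rose after irradiation (0.92, adjusted p 7.32e-07), from 345 ± 47.2 to 648 ± 16.6 (SD, n = 3), and TONSL was the one called higher with palbociclib (0.26, adjusted p 0.0314), a difference of 0.036 and not called at the same total.

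Of 10 further nucleotide supply genes, 6 were lower and 3 higher after irradiation, against 39.3% and 33% of all tested genes. With palbociclib 4 were lower and 2 higher, against 22.3% and 26%. At the same total 6 were lower and 0 higher with palbociclib, against 46% and 8.35%. RRM2B, the p53-induced counterpart of RRM2, was at 679, 551 and 795 in proliferating cells, 3473, 3408 and 3312 with DMSO, 2751, 2246 and 2345 with palbociclib and 3304, 3541 and 3419 with ruxolitinib. RRM2B rose after irradiation (2.35, SE 0.10, adjusted p 1.21e-11) and then fell with palbociclib (-0.48, adjusted p 0.00126) but stayed above all proliferating libraries. SAMHD1, which breaks down deoxynucleotides, was at 449, 421 and 477 in proliferating cells, 1045, 1011 and 1014 with DMSO, 486, 428 and 506 with palbociclib and 419.7, 393 and 344 with ruxolitinib. It rose after irradiation (1.19) and fell with palbociclib (-1.11, adjusted p 5.40e-08) and with ruxolitinib (-1.41, adjusted p 1.18e-08), where it was the 1 gene of this list that was called. DCTD (0.32, adjusted p 0.000138) and TK2 (0.32, adjusted p 0.000495) were called higher with palbociclib, at 0.092 and 0.093 and not called at the same total.

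Of 11 tested genes that control entry into S phase, 9 were lower and 1 higher after irradiation, against 39.3% and 33% of all tested genes. With palbociclib 8 were lower and 2 higher, against 22.3% and 26%. At the same total 8 were lower and 0 higher with palbociclib, against 46% and 8.35%. CCND1, cyclin D1, was the 1 that rose after irradiation (1.75, adjusted p 4.09e-12), and CCND1 (0.23) and SKP2 (0.35) were called higher with palbociclib, at -0.00093 and 0.13 and not called at the same total. E2F8 and E2F2 were left with 3 reads or fewer in each palbociclib library. Against 3 reads per library, E2F8 was at least 9.05-fold higher and E2F2 at least 5.59-fold higher with DMSO than with palbociclib. E2F1 fell from 293, 271 and 266 with DMSO to 183, 210.2 and 208 with palbociclib (-0.47, adjusted p 0.000392). E2F7 and RNASEH1 were not analysed here.

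Promoter letters and response can be set side by side for the 48 members with an entry. TTTNNCGC was found in 8 of the 14 members that were at least halved by palbociclib and in 5 of the 13 that were not called lower with it, and CCAAT in 11 of 14 and 9 of 13. RRM2 kept the lowest percentage of its proliferating mean with palbociclib. It has no TTTNNCGC match in its window and 3 CCAAT matches, whereas MCM6, which was not called, has 4 and 2. The 250 bases before the start used for RRM2 (chr2:10122489-10122738) lie within its annotated gene span and hold 0 bases outside annotated exons. CLSPN has 1 TTTNNCGC match in its window, which does not lie wholly within the 250 bases before its start. These counts are small and no test was made of them.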

How the data were processed

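The values are those of 1 table of poly(A) RNA-seq, a normalized count signal that the authors deposited with 1 row per Entrez gene and 1 column per library. Per the submitters' processing notes, Trimmomatic 0.38.1, HISAT2 2.2.1, featureCounts 2.0.3 and DESeq2 2.11.40.8 were used with the hg38 genome. The columns name a group and a library number (A116 to A127). Division by the value of 1 read in a column gave a whole number, within 0.01, for 160380 of 160380 values above 0 (100%), so whole reads were recovered. The table ends at Entrez gene 140467, so the totals are not full depths.

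In R 4.3.3, a limma 3.58.1 model was fitted to log2(normalized count + 1) with 4 group means over 12 libraries, a variance trend and Benjamini-Hochberg adjustment over the 11242 genes with a mean of at least 10. Calls are at an adjusted p under 0.05. Because of the added 1, fold changes of low genes are understated, and 95% intervals are from the same fit. Values are not per length and were not compared between genes. As alternatives, edgeR 4.0.16 (quasi-likelihood, TMM) and DESeq2 1.42.0 were fitted to those reads, where edgeR called 8150 genes in DMSO against proliferating cells, 5374 in palbociclib against DMSO, 556 in ruxolitinib against DMSO and 4558 between the inhibitors. Other pseudocounts, filters, scalings, thresholds and fits without single libraries were also run, and the scripts were tested on simulated data. Coordinates are from GENCODE on GRCh38.

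The members, lists and tests were chosen with earlier results of these data known. Values per library are given for the members with the largest and smallest change after irradiation in each role, the 5 with the largest change in each other comparison, and those called against most of their role; MCM7, PCNA and the promoters of MCM6, CLSPN, MCM10, CDT1 and PCNA were added after values were seen. Of the other lists, the largest rise and the largest fall in a comparison and RRM2B are named, with some genes not reported here, and DCTD, E2F1 and E2F2 were added after values were seen.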

Additional observations from a re-analysis of the deposited data

How the results depend on the processing

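Directions of the medians held under every alternative run, and the sizes moved with the scaling. In DMSO against proliferating cells the median was -2.03 at the same total, -1.97 at the same upper quartile and -2.20 with edgeR and with DESeq2. Equal totals and equal upper quartiles gave -0.75 and -0.61 for palbociclib against DMSO, and -0.065 at the same upper quartile for ruxolitinib against DMSO. Palbociclib against ruxolitinib gave -0.52 at the same total, -0.45 at the same upper quartile and -0.44 without libraries A120 and A126, a setting chosen after seeing the data.

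At a log2 fold change of at least 1, palbociclib against DMSO had 14 lower and 0 higher members, ruxolitinib against DMSO 0 lower, and palbociclib against ruxolitinib 12 lower and 0 higher. For palbociclib against DMSO, 0 members were higher at equal totals and 1 at equal upper quartiles, with only the 2 groups fitted, with edgeR, with DESeq2 and at an adjusted p under 0.01. For ruxolitinib against DMSO the lower members were 3 at the same upper quartile, 10 with the 2 groups alone and 9 without A120 and A126. They were 9 with DESeq2 and 2 at an adjusted p under 0.01. Over all genes, in place of 3.42%, 2.65% were lower at the same upper quartile and 8.72% with the 2 groups alone. The shares were 6.71% without A120 and A126 and 3.99% with DESeq2. In this comparison 1 member was higher with the 2 groups alone and without A120 and A126, against 7.31% and 5.03% of all genes. Palbociclib against ruxolitinib had 1 member higher at a pseudocount of 0.1, with no filter, with no variance trend, with the 2 groups alone and with edgeR, and 0 at the same total, the same upper quartile, with DESeq2 and at an adjusted p under 0.01. The cause of these differences was not tested.

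Among members called in at least 1 of the fits compared, the sign reversed in 6 cases: ORC3 after irradiation (0.051 at the same upper quartile), and at the same total POLE3 (-0.040) and RPA1 (-0.10) in palbociclib against DMSO and POLE3 (-0.013), RPA1 (-0.13) and RPA2 (-0.16) in palbociclib against ruxolitinib. At these scalings the sign also changed in 23 cases that were called in neither fit, such as MCM6 (-0.11) and ORC2 (-0.17) in palbociclib against DMSO at the same total. With 1 library left out, the lower members ranged from 54 to 54, 35 to 40, 2 to 9 and 28 to 33 over the comparisons of DMSO with proliferating cells, palbociclib with DMSO, ruxolitinib with DMSO and palbociclib with ruxolitinib. The higher members ranged from 0 to 0, 1 to 3, 0 to 0 and 0 to 3, and the medians from -2.28 to -2.24, -0.56 to -0.48, -0.16 to -0.11 and -0.44 to -0.32. No paired analysis was possible because the columns carry a library number and no replicate number. Both the 3 libraries per group and, for the lowest members, depth limit the precision: with palbociclib PRIM1 had 10 to 14 reads per library and CDC45 16 to 21.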
